A study of Mus musculus with 9 samples.

Results

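Isg15, Ifit1, Ifit2, Ifit3, Oas1a, Oasl2, Rsad2, Irf7 and Usp18 are 9 mouse genes that cells switch on in response to type I interferon, and their mRNA was compared in the livers of mice with and without diet-induced non-alcoholic steatohepatitis (NASH). They were picked by gene symbol, and all 9 are among the 17846 genes listed for this study. Liver RNA was sequenced from 9 wild-type male C57/BL mice, with 1 library per mouse and no pooling. The 3 Control mice (replicates 3, 4 and 29) ate normal chow and stayed sedentary. The 3 NASH mice (replicates 5, 19 and 20) ate the Ath diet, which is rich in cholesterol and contains cholate, for 20 weeks and stayed sedentary. The 3 NASH+Exercise mice (replicates 8, 18 and 22) ate the same diet for 20 weeks and ran on a treadmill during the last 8 of them, starting at 20 weeks of age. All mice were fasted overnight before the liver was taken. The Ath diet stands for NASH in both diet groups, and no trained mice on normal chow were among the samples, so training was measured on the Ath diet alone.

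Type I interferons bind a receptor of the chains IFNAR1 and IFNAR2, whose kinases JAK1 and TYK2 act on transcription factors of the STAT family. Together with IRF9 these form the complex ISGF3, which binds interferon stimulated response elements (ISRE) in the promoters of its target genes. The targets include enzymes and RNA-binding proteins that limit viruses, the transcription factor IRF7 that raises interferon production further, and brakes such as USP18. In liver, hepatocytes, resident macrophages (Kupffer cells), endothelial cells and recruited immune cells can all respond.

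The ISRE is a repeat of the half-site GAAA, and it was searched as GAAANNGAAA, with its reverse complement TTTCNNTTTC, in the 300 bases from 250 before the start of each gene in RefSeq (GRCm38.p6). Of the 9 genes, 8 had an entry in that promoter table and Usp18 had none. The pattern was found in 5 of the 8, against 3.99% of the 27025 genes in the table. The stretches that hold it are shown because they are what these genes share in sequence, with each match in capitals and each stretch written on the strand of its gene.
Isg15: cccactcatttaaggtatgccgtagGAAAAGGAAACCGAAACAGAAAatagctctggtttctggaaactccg
Ifit1: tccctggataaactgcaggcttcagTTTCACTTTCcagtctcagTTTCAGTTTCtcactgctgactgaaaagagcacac
Ifit3: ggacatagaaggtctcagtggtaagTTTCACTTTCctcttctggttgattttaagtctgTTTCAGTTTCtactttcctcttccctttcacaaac
Oas1a: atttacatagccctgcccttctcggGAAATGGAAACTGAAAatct
Rsad2: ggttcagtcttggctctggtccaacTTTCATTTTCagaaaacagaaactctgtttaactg

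The stretch of Isg15 lies at chr4:156200850-156200921 (minus strand) and holds 3 overlapping matches between 78 and 57 bases before the start. That of Ifit1 lies at chr19:34640760-34640838 (plus strand), and that of Ifit3 at chr19:34583348-34583441 (plus strand), each with 2 separate matches. The RefSeq gene bounds of Ifit3 and Oas1a reach further upstream than the start used for the promoter, so that the stretch of Ifit3 and part of that of Oas1a fall inside them. Oas1a has 2 overlapping matches that end 5 bases before its start, at chr5:120907526-120907570 (minus strand). Rsad2 has 1 match, at chr12:26456538-26456597 (minus strand). No match lay in the windows of Ifit2, which has 2 listed starts, Oasl2 or Irf7, which says only that these letters are not there. The GAS pattern TTCNNNGAA, the element of STAT dimers that reads the same on both strands, was found in the windows of Ifit2 and Oas1a, against 9.55% of the genes in the table. It did not overlap the ISRE matches of Oas1a.

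**Figure D1:**
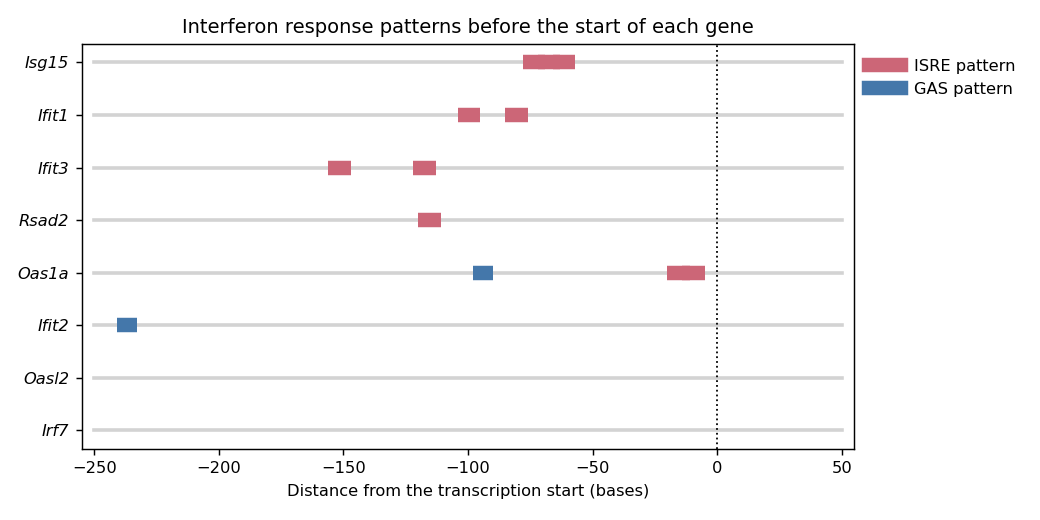
Positions of matches to the ISRE pattern (red) and the GAS pattern (blue) along the promoter window of 8 of the genes, with the distance from the transcription start in bases on the horizontal axis and the start as a dotted line. The ISRE matches of Isg15, Ifit1, Ifit3 and Rsad2 lie before the start, and those of Oas1a lie next to it. The GAS matches lie at -241 to -233 in Ifit2 and at -98 to -90 in Oas1a. Oasl2 and Irf7 have neither pattern.

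The libraries held between 20085976 and 22495408 estimated counts per mouse. Markers of hepatocytes, the main cell of the labelled tissue, made up 83300 to 117000 TPM (the share of transcripts, corrected for their length) in every library. Control replicate 29 stood apart from the other Control mice. It was at least 2-fold above both of them in 338 of the 13619 genes tested (2.48%), while the same count was 42 to 181 in each other mouse against its own group, and the median ratio over all genes was 1.01. Among the 9 interferon genes, 5 were at least 2-fold above both other Control mice in this library (Ifit1, Ifit2, Ifit3, Rsad2 and Usp18), and the ratio to the mean of the other Control mice ran from 1.25 for Irf7 to 5.70 for Ifit2. Summed markers of macrophages were 121 TPM in this liver against 59.9 and 66.1 in the other Control mice, those of B cells 4.25 against 1.85 and 1.43, those of sinusoidal endothelial cells 116 against 54.9 and 58.6, and those of monocytes 10.1 against 4.81 and 4.06. Summed hepatocyte markers were 114000 against 116000 and 109000 TPM. In normalized counts (CPM, defined below), the median ratio to the mean of the other Control mice was smaller for most lists. It was 1.58 for macrophage, 1.64 for endothelial, 1.97 for monocyte and 3.72 for B cell markers. For hepatocyte markers it was 0.835, from 0.691 to 1.27. Of these 5 lists, only B cells had markers at least 2-fold above both other Control mice, 2 of 3. The part of any of these cell types in the interferon genes of this liver was not tested. The results of the 9 genes against Control are therefore given with and without this liver, as are the counts of the pathway lists where calls changed. It was the highest Control mouse in all 9 genes, so leaving it out raises their fold changes against Control by construction. The calls gained without it are a description and no separate support.

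Levels are given as normalized counts (CPM, counts scaled to the library size after TMM normalization). Calls needed both an absolute log2 fold change above 1 and an adjusted p below 0.05, by the quasi-likelihood test of edgeR, adjusted after Benjamini and Hochberg over all genes tested. Every adjusted p below is from that test unless another is named.

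Compared with Control, all 9 interferon genes had a higher mean level in NASH, and 6 of them rose past both thresholds, namely Oas1a, Oasl2, Ifit2, Irf7, Isg15 and Ifit3. The background is large, since 15.3% of all genes tested were called higher in NASH. In 8 of the 9 genes every NASH mouse was above every Control mouse, which held for 27.4% of all genes tested, and Rsad2 was the exception. The median log2 fold change of the 9 genes was 1.58, against 0.013 over all genes tested. Without Control replicate 29, the highest Control mouse in each of these genes, all 9 were called, 15.3% of all genes being called higher in that fit. The values then ran from 1.05 for Rsad2 to 3.62 for Ifit2, with a median of 2.11, and Ifit3 was at 2.15.

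In NASH+Exercise, all 9 genes had a lower mean level than in NASH, by 0.22 to 0.99 on the log2 scale, and none was called. The background share is small here, as 0.0367% of all genes tested were called lower. At an unadjusted p below 0.05 there were 4 (Oas1a, Oasl2, Rsad2 and Irf7), against 10.7% of all genes tested that were lower at that p. In 6 of the 9 genes every trained mouse was below every NASH mouse, against 14.9% of all genes tested, and Isg15, Ifit1 and Ifit3 overlapped. In TPM it was 8 of the 9, with Ifit1 overlapping, but on that scale 37.6% of all genes were separated in this direction. The median log2 fold change of the 9 genes was -0.53, against -0.033 over all genes tested. DESeq2 fitted to these 6 mice gave an adjusted p below 0.05 to 3 of them, Oasl2 (log2 fold change -0.71, DESeq2 adjusted p = 0.00127), Rsad2 (-0.88, DESeq2 adjusted p = 0.0132) and Ifit2 (-0.95, DESeq2 adjusted p = 0.0157), all short of the fold threshold. With that tool and an adjusted p alone, 2.15% of all genes were lower, and 0.936% were called lower at both thresholds. This comparison shares the NASH mice with the one above.

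NASH+Exercise mice still differed from Control in 4 of the 9 genes, Oas1a, Oasl2, Isg15 and Irf7, which were called higher, against 10.4% of all genes tested. The same 4 were the genes in which the groups did not overlap, which held for 21.5% of all genes tested. Without Control replicate 29 the count was 8 of 9, every gene except Rsad2, against 10.1% of all genes in that fit. This comparison shares its mice with both others.

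**Figure D2:**
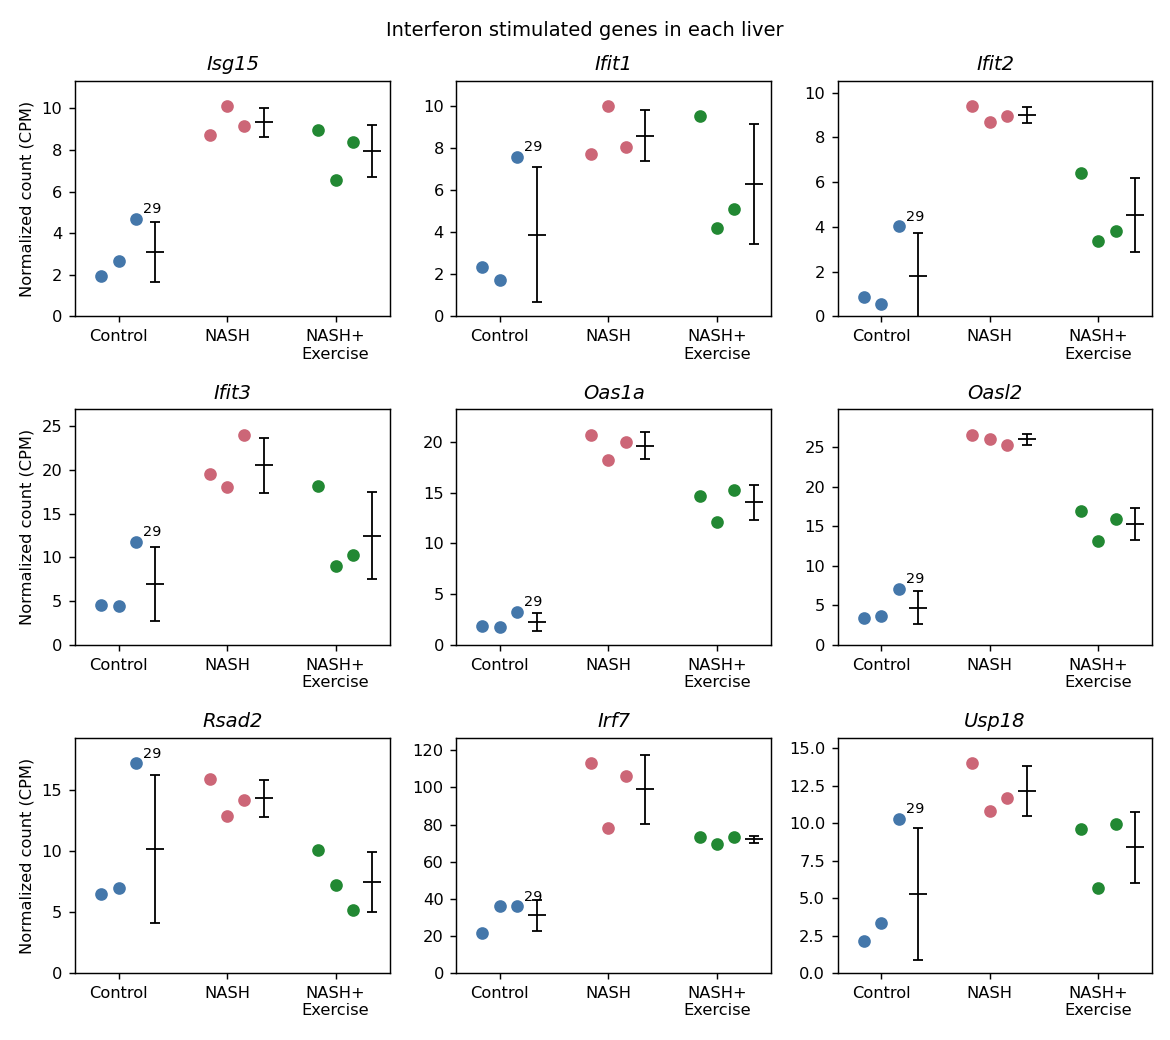
Normalized counts (CPM, linear axis from 0) of the 9 genes in each of the 9 livers, with 1 point per mouse, the group mean as a bar and the SD (n = 3) as whiskers, cut off at 0 for Ifit2 in Control. The point marked 29 is Control replicate 29, which for Rsad2 is the highest of all mice at 17.2 CPM, and in Oas1a, Oasl2 and Ifit2 the trained mice lie below all 3 NASH mice.

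Irf7 (Entrez Gene 54123, chr7:141263183-141266499, minus strand) encodes the transcription factor that carries interferon production into its second, self-amplifying phase. Its level was 21.7, 36.1 and 36.2 CPM in the Control mice, 113, 78.1 and 106 CPM in the NASH mice, and 73.2, 69.7 and 73.2 CPM in the NASH+Exercise mice. The 3 groups did not overlap, the trained mice lay within a narrow range below the lowest NASH mouse, and Control replicate 29 was level with replicate 4. The log2 fold change was 1.66 (SE 0.20, adjusted p = 0.000156) in NASH against Control and -0.46 (SE 0.20, adjusted p = 0.306) in NASH+Exercise against NASH. Against Control, the trained mice were higher by 1.2 (adjusted p = 0.00159). This last value fell just short of the fold threshold without Control replicate 3, at 0.99. Irf7 was at 1.73 in NASH and 1.29 in trained mice against Control without Control replicate 29, both called. Irf7 had the highest level of the 9 genes per transcript length in every group, with 25.7 ± 7.95 TPM in Control, 108 ± 14.3 TPM in NASH and 64.4 ± 7.68 TPM in NASH+Exercise (SD, n = 3 each).

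Oas1a (Entrez Gene 246730, chr5:120896256-120907544, minus strand) encodes a 2'-5'-oligoadenylate synthetase, an enzyme that senses double-stranded RNA and makes the activator of RNase L. It measured 1.82, 1.72 and 3.27 CPM in Control, 20.7, 18.2 and 20.0 CPM in NASH and 14.7, 12.1 and 15.3 CPM in NASH+Exercise. None of the 3 groups overlapped, and even Control replicate 29 stayed far under the trained mice. With a log2 fold change of 3.10 (SE 0.23, adjusted p = 7.89e-06), Oas1a had the largest rise of the 9 genes in NASH over all mice, though without Control replicate 29 it was at 3.43, below the 3.62 of Ifit2. With training it was -0.49 relative to NASH (SE 0.20, adjusted p = 0.276), and against Control it was 2.62 (adjusted p = 3.15e-05), the largest of the 9 there with that liver and, at 2.96, without it. Its neighbour Oas1g has an identity of 96.7% in coding sequence, and the bases shown for Oas1a recur up to the start of Oas1g, at chr5:120887614-120887656 (minus strand). The split of reads between these copies is uncertain. Oas1g had log2 fold changes of 3.19 in NASH (called) and -0.48 with training (not called).

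Oasl2 (Entrez Gene 23962, chr5:114896926-114912245, plus strand) encodes an OAS-like protein with ubiquitin-like domains. The Control mice had 3.38, 3.61 and 7.14 CPM, the NASH mice 26.6, 26.1 and 25.3 CPM, and the NASH+Exercise mice 17.0, 13.1 and 15.9 CPM. The NASH mice were close to each other and all above the trained mice, which were all above Control. The log2 fold change was 2.46 (SE 0.25, adjusted p = 5.16e-05) in NASH. In NASH+Exercise it was -0.76 against NASH (SE 0.23, adjusted p = 0.186, the smallest of the 9) and 1.7 against Control (adjusted p = 0.000756). Leaving out Control replicate 29 gave 2.85 in NASH and 2.11 in trained mice against Control, both called.

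Ifit1, Ifit2 and Ifit3 encode proteins of tetratricopeptide repeats that bind foreign RNA or each other and block its translation. The 3 genes lie together within 99460 bases of chromosome 19. Ifit2 (Entrez Gene 15958, chr19:34550550-34576534, plus strand) had 0.859, 0.556 and 4.03 CPM in Control, 9.39, 8.69 and 8.97 CPM in NASH and 6.42, 3.35 and 3.80 CPM in NASH+Exercise. Control replicate 29 was above 2 of the 3 trained mice but far below any NASH mouse. The log2 fold change of Ifit2 in NASH was 2.29 (SE 0.57, adjusted p = 0.0119), and 3.62 (adjusted p = 6.03e-05) without Control replicate 29. In trained mice against Control it was 1.30 (adjusted p = 0.135, not called), and 2.65 (adjusted p = 0.000575, called) without that liver. With training the difference from NASH was -0.99 (SE 0.53, adjusted p = 0.403), the largest difference in this direction of the 9 genes.

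Ifit3 (Entrez Gene 15959, chr19:34583119-34588982, plus strand) had 4.56, 4.39 and 11.8 CPM in Control, 19.5, 18 and 24.0 CPM in NASH and 18.2, 8.97 and 10.3 CPM in NASH+Exercise. Trained replicate 8 lay among the NASH mice, while the other trained mice lay below Control replicate 29. Its log2 fold change was 1.56 (SE 0.39, adjusted p = 0.0128) in NASH and -0.71 (SE 0.38, adjusted p = 0.406) with training. The call in NASH was lost without Control replicate 3, with 1.33 and an adjusted p of 0.0503. In trained mice against Control, Ifit3 was at 0.85 (adjusted p = 0.154), and at 1.46 (adjusted p = 0.00692, called) without Control replicate 29. Ifit3b, next to it, is a near-identical copy with 99.1% of the coding bases alike, and the promoter stretch shown for Ifit3 stands before Ifit3b letter for letter, at chr19:34607744-34607837 (plus strand). Reads of Ifit3 and Ifit3b can therefore be exchanged by the counting. Ifit3b had a log2 fold change of 1.43 in NASH (called) and -0.29 with training (not called).

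Ifit1 (Entrez Gene 15957, chr19:34640889-34650009, plus strand) had 2.36, 1.72 and 7.60 CPM in Control, 7.73, 10 and 8.08 CPM in NASH and 9.56, 4.20 and 5.12 CPM in NASH+Exercise. Control replicate 29 nearly reached the lowest NASH mouse, and trained replicate 8 exceeded all NASH mice but one. Ifit1 was not called in any of the comparisons over all 9 mice, with 1.14 (SE 0.50, adjusted p = 0.108) in NASH and -0.45 (SE 0.49, adjusted p = 0.711) with training. Without Control replicate 29, its log2 fold change in NASH was 2.03 (adjusted p = 0.0021) and that of the trained mice against Control 1.60 (adjusted p = 0.0106).

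Rsad2 (Entrez Gene 58185, chr12:26442743-26456452, minus strand) encodes viperin, a radical SAM enzyme of the endoplasmic reticulum and lipid droplets that makes a chain-terminating nucleotide. It was the one gene of the 9 in which NASH and Control mice overlapped. The Control mice had 6.49, 6.95 and 17.2 CPM, the NASH mice 15.9, 12.9 and 14.2 CPM, and the NASH+Exercise mice 10.1, 7.22 and 5.22 CPM. The highest value of all belonged to Control replicate 29, and the trained mice overlapped the other Control mice. Rsad2 was not called in NASH (log2 fold change 0.48, SE 0.36, adjusted p = 0.339) unless that library was left out (1.05, adjusted p = 0.00917). With training it was -0.93 (SE 0.37, adjusted p = 0.275). Against Control, the trained mice had a value of -0.44 (adjusted p = 0.435), or 0.14 (adjusted p = 0.731) without Control replicate 29, so the sign rested on that liver. Cmpk2, a nucleotide kinase gene that lies 12664 bases away on the opposite strand, had log2 fold changes of 1.10 in NASH (adjusted p = 0.0242, called), -0.86 with training and 0.24 in trained mice against Control.

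Isg15 and Usp18 belong to one small protein modifier system, in which ISG15 is joined to other proteins like ubiquitin and USP18 removes it. USP18 also binds IFNAR2 and damps the receptor. Isg15 (Entrez Gene 100038882, chr4:156199424-156200818, minus strand) had 1.93, 2.67 and 4.69 CPM in Control, 8.73, 10.1 and 9.14 CPM in NASH and 8.95, 6.56 and 8.38 CPM in NASH+Exercise. Every mouse on the Ath diet exceeded every Control mouse, while the trained and untrained mice overlapped. The log2 fold change of Isg15 was 1.58 (SE 0.28, adjusted p = 0.00144) in NASH and 1.36 (adjusted p = 0.00503) in trained mice against Control. These were 1.97 and 1.77 without Control replicate 29, both called. With training it was -0.22 relative to NASH (SE 0.26, adjusted p = 0.734), the smallest difference of the 9 genes.

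Usp18 (Entrez Gene 24110, chr6:121245906-121270917, plus strand) had 2.15, 3.34 and 10.3 CPM in Control, 14.0, 10.8 and 11.7 CPM in NASH and 9.60, 5.67 and 9.94 CPM in NASH+Exercise. Control replicate 29 lay just under the lowest NASH mouse and above all trained mice. Its log2 fold change was 1.2 in NASH (SE 0.48, adjusted p = 0.0791) and -0.53 with training (SE 0.47, adjusted p = 0.632), and neither was called. Without Control replicate 29 it was 2.11 in NASH (adjusted p = 0.000611) and 1.59 in trained mice against Control (adjusted p = 0.00437), both called.

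**Figure D3:**
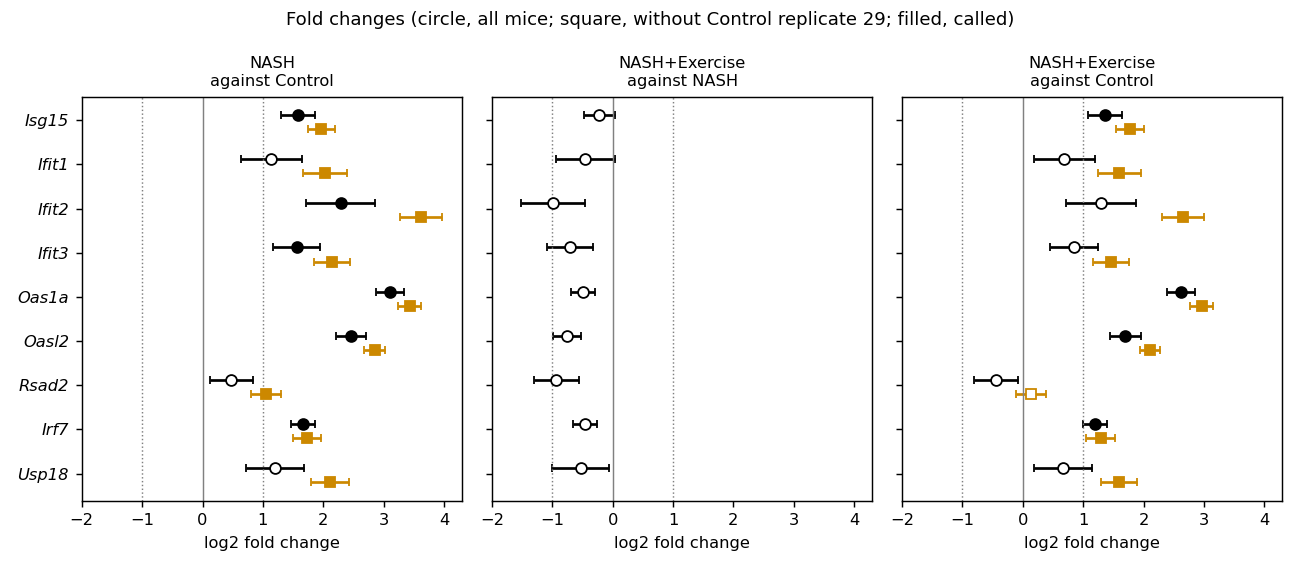
Log2 fold changes of the 9 genes in the 3 comparisons, with standard errors as bars and the fold thresholds of -1 and 1 as dotted lines. Circles are the fit of all mice and squares, for the comparisons with Control, the fit without Control replicate 29, and filled symbols were called. In NASH+Exercise against NASH all 9 circles are open and lie between -0.99 and -0.22, and only Rsad2 crosses 0 when Control replicate 29 is left out.

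Per transcript length, the summed level of the 9 genes was 35.5, 42.4 and 88.2 TPM in the Control mice, 248, 227 and 232 TPM in the NASH mice and 169, 118 and 123 TPM in the NASH+Exercise mice. The groups did not overlap in this sum, of which Irf7 was the largest part, and Control replicate 29 lay nearest to the trained mice. In TPM, however, 37.6% of all genes tested separated downward with training, against 14.9% in CPM. The gap between NASH and NASH+Exercise in this sum is therefore not particular to the 9 genes. In NASH, Oas1a (26.1 ± 0.94 TPM), Isg15 (25.4 ± 3.52), Oasl2 (23.3 ± 2.19) and Ifit3 (20.7 ± 2.13) followed Irf7. Irf7 stood above the rest by far more than its SD, while neither Oas1a and Isg15 nor Isg15 and Oasl2 differed beyond the larger SD of the pair. Usp18 (13.7 ± 1.57), Rsad2 (7.47 ± 0.56), Ifit1 (6.53 ± 1.38) and Ifit2 (4.61 ± 0.24) were lowest, and Rsad2 and Ifit1 did not differ beyond the larger SD (n = 3 each). In NASH+Exercise, Isg15 (17.7 ± 4.07 TPM) came before Oas1a (15.2 ± 2.5), within the larger SD, followed by Oasl2 (11.4 ± 2.3) and Ifit3 (10.7 ± 5.52), which lay within it too. In Control, Oas1a (2.33 ± 1.19 TPM) ranked level with Ifit1 (2.33 ± 2.19 TPM), near the bottom, with Ifit2 again lowest at 0.737 ± 0.838 TPM.

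The deviation of each mouse from its group mean on the log2 scale was above 0 for all 9 genes in Control replicate 29 (median 0.90, from 0.24 to 1.59) and in NASH+Exercise replicate 8 (median 0.23). In NASH+Exercise replicate 18 it was below 0 for all 9 (median -0.26). The NASH mice lay close together, with medians between -0.10 and 0.059. Over the 36 pairs of genes, Pearson's r of these deviations across the 9 mice had a median of 0.85, from 0.17 to 0.97. The median was 0.42, from -0.38 to 0.91, over the 8 mice without Control replicate 29. These are descriptions across few mice, and all genes of a mouse share its library.

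**Figure D4:**
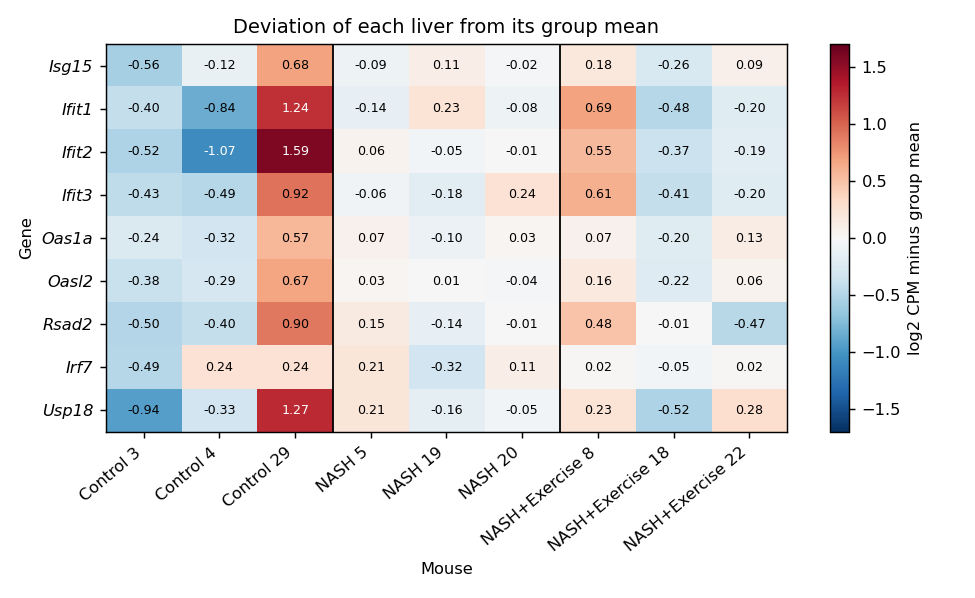
Deviation of log2 CPM from the group mean for the 9 genes (rows) in each mouse (columns, with lines between groups), printed in each field and coloured red above and blue below 0. Control replicate 29 is red in every row, up to 1.59 for Ifit2, NASH+Exercise replicate 8 is above 0 and replicate 18 below 0 in every row, and the NASH columns are pale.

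The 5 genes outside the group whose deviations were most like the mean standardised deviation of the 9 genes were Tmem229b (r = 0.994 over 9 mice), Emilin2 (0.992), Rasgef1b (0.989), Dcp2 (0.985) and Gimap6 (0.983). Without Control replicate 29 their r was 0.99, 0.95, 0.90, 0.94 and 0.99. Tmem229b was called higher in NASH (log2 fold change 2.21) and in trained mice against Control (1.49), and was at -0.72 with training. Emilin2 was also called higher in both (2.19 and 2.32), but its value with training was 0.12. Rasgef1b (0.76 in NASH), Dcp2 (0.54) and Gimap6 (0.57) were not called in any comparison. Among the pathway genes described next, Uba7 ranked 10 and Irf8 ranked 14 of 13610 genes by this measure.

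The rest of the pathway was read from lists of its parts, with log2 fold changes in parentheses. The receptor chains Ifnar1 (0.013) and Ifnar2 (-0.16), Jak1 (0.25) and Irf9 (0.26) passed neither threshold in NASH, while Tyk2 (0.47, adjusted p = 0.0151) and Stat2 (0.50, adjusted p = 0.0174) passed the adjusted p alone. None of these 6 was called in trained mice against NASH or against Control.

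The ligands were at or near 0. Of the 4 interferon genes with a value, Ifnb1 and Ifna4 had 1 estimated count each in NASH replicate 5 and 0 in all other mice, and Ifnk had 1 count in each NASH mouse and 0 elsewhere. Ifng, the type II interferon, had 0 counts in the Control mice, 8, 7 and 7 in the NASH mice and 3, 5 and 3 in the NASH+Exercise mice. No ligand had enough counts for a test, and a count of 0 allows up to 3 counts per library, counting error only.

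Of the 4 enzymes that attach ISG15, the activating enzyme gene Uba7 and the ligase gene Herc6 were called higher in NASH, where 15.3% of all genes tested were. Uba7 had 3.60, 3.39 and 6.79 CPM in Control, 22.2, 20.4 and 23.2 CPM in NASH and 17.9, 13.6 and 14.2 CPM in NASH+Exercise, and its groups did not overlap. Of all genes tested, 27.4% were separated upward in NASH, 14.9% downward with training and 21.5% upward in trained mice against Control. The log2 fold change of Uba7 was 2.25 (adjusted p = 7.11e-05) in NASH, -0.52 (adjusted p = 0.305) with training and 1.73 (adjusted p = 0.00055) in trained mice against Control. Herc6 had 1.41 in NASH (adjusted p = 0.00926), and was called in trained mice against Control only without Control replicate 29 (1.41, adjusted p = 0.00924). Over all genes, 10.4% were called higher in trained mice against Control, and 10.1% without that library. The conjugating enzyme gene Ube2l6 (0.67, adjusted p = 0.0165) and Trim25 (-0.60, adjusted p = 0.00398), a ligase gene, did not pass the fold threshold, and Trim25 was lower.

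Among relatives of the Ifit and Oas genes, 7 of the 9 tested were called higher in NASH, 0 with training and 5 in trained mice against Control. Over all genes tested, 15.3% were called higher in NASH and 10.4% in trained mice against Control. The synthetase genes Oas3 (2.6 in NASH, -0.60 with training) and Oas2 (2.48 and -0.33) were called in NASH, and Oas3 holds 1 ISRE match before its start. Ifit1bl1 (3.23) and Oas1c (1.98) were called in NASH too. The counts were 7 in NASH and 6 in trained mice against Control without Control replicate 29, with Ifit3b added (1.86, adjusted p = 0.0104). Ifit1bl2 (0.31) and Oasl1 (0.36), the relative of Oasl2 with 60.1% identity in coding sequence, were not, and their groups overlapped.

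Of 15 sensors and adaptors that lie upstream of interferon, 8 were called higher in NASH, where 15.3% of all genes tested were. The largest were Tlr9 (log2 fold change 3.51), Tlr7 (3.28) and Zbp1 (2.99), and Zbp1, a sensor of Z-form nucleic acids, had the largest value of this list with training (-1.16, adjusted p = 0.127). The other IRF genes gave 4 of 7 in NASH, led by Irf8 (2.63), Irf4 (2.58) and Irf5 (1.86), and the negative regulators 3 of 7, namely Socs1 (1.97), Samhd1 (1.96) and Socs3 (1.27). Of 28 other interferon targets, 17 were called higher, with Ifi44 (3.12), Ifi27l2a (2.97) and Epsti1 (2.80) largest. The remaining one called was Tor3a, at -1.53, lower where 3.03% of all genes were called lower. None of the genes in these lists was called with training by edgeR, while DESeq2 on the 6 mice called Zbp1 (-1.11, DESeq2 adjusted p = 1.24e-05) and no other gene of them. Short of the fold threshold, Irf8 (DESeq2 adjusted p = 0.00737), Tap1 (0.00899), Samhd1 (0.0276) and Epsti1 (0.0301) were lower at the DESeq2 adjusted p alone. With that tool 0.936% of all genes were called lower, and 2.15% were lower at the adjusted p alone. Higher with training than in NASH were 4 of 15 sensors and adaptors and 4 of 7 IRF genes. The same held for 1 of 7 negative regulators, 5 of 28 other targets and 6140 of all 13619 genes tested. The rest of each list was lower. The largest IRF value was -1.07 for Irf4, with Irf5 at 0.31. Socs3 (0.92, adjusted p = 0.322) and Ifi44 (-0.81) were largest in their lists. In trained mice against Control, 6 of 15, 5 of 7, 3 of 7 and 16 of 28 were called higher, against 10.4% of all genes tested. Tor3a was called lower there (-1.93, where 3.07% of all genes were called lower). The count of all the other pathway genes, including the 11 interferon gamma targets, was 52 in NASH, 51 of them higher, 1 with training and 43 in trained mice against Control. The counts in NASH without Control replicate 29 were 9 of 15 sensors and adaptors, 4 of 7 IRF genes, 2 of 7 negative regulators, as Socs3 was no longer called (1.47, adjusted p = 0.0553), and 17 of 28 other targets, Tor3a included. In trained mice against Control they were then 7, 3, 3 and 17 (Tor3a included), with Irf4 (1.52, adjusted p = 0.0996) and Irf2 (0.92) no longer called.

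Markers of several immune cell types were called higher in NASH, where 15.3% of all genes tested were. Of 8 macrophage markers, 7 were called higher in NASH (median log2 fold change 2.67), and their summed level was 59.9 to 121 TPM in Control, 590 to 802 TPM in NASH and 442 to 548 TPM in NASH+Exercise. All 5 monocyte markers were called (median 4.11), with sums of 4.06 to 10.1, 86.7 to 109 and 26.0 to 56.0 TPM. Calls were also made for 4 of 5 neutrophil markers (median 4.26), with sums of 6.54 to 10.6, 82.4 to 102 and 46.3 to 77.8 TPM, and for all 5 tested markers of T and NK cells (median 1.98), with 1.56 to 2.57, 10 to 13.1 and 5.39 to 7.29 TPM. The monocyte marker Chil3 was listed at 0 in Control replicate 3, and the neutrophil marker Mpo in Control replicates 3 and 4, and the NK cell marker Ncr1 in Control replicate 4 and NASH+Exercise replicate 22. The numbers of these markers called in NASH were the same without Control replicate 29. With training, edgeR called no marker of these lists, and the medians were -0.25, -0.88, -0.26 and -0.68 in the same order. In TPM, the scale of the sums, 37.6% of all genes separated downward with training. In CPM, every trained mouse was below every NASH mouse for 1 of 8 macrophage and 3 of 5 monocyte markers. This held for 1 of 5 neutrophil and 2 of 5 T and NK cell markers, and for 14.9% of all genes tested. By fold change, 2 of 8 macrophage, 1 of 5 neutrophil and 1 of 5 T and NK cell markers were higher with training. DESeq2 on the 6 mice called 2 monocyte markers lower, Ly6c2 (-1.47, DESeq2 adjusted p = 3.46e-05) and Ccr2 (-1.63, DESeq2 adjusted p = 0.000359), and a further one, Plac8, passed the adjusted p alone (-0.83, DESeq2 adjusted p = 0.0241). Markers of B cells (median 0.29 in NASH), sinusoidal endothelial cells (0.60) and hepatocytes (-0.61) gave no call in either comparison with edgeR. In bulk liver, fewer cells of a type and less RNA per cell cannot be told apart, and the part of immune cells in the levels of the 9 genes was not tested.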

How the data were processed

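For each gene, listed by Entrez Gene identifier, the authors deposited estimated counts (not normalized), TPM and FPKM per mouse. The submitters' processing notes name HISAT2 2.1.0, Bowtie2 2.2.5, RSEM 1.2.8 and GRCm38.p6 without their roles. The deposited FPKM values were not used. Of the estimated counts, 29.0 to 32.8% per library were not whole, and they were rounded. Low genes were removed with filterByExpr (minimum count 10, minimum total 15). TMM scaling and a robust quasi-likelihood model with 1 term, the group, were run in edgeR 4.0.16 (R 4.3.3), on the 9 mice together (6 residual degrees of freedom), with Benjamini-Hochberg adjustment over 13619 genes. The thresholds (adjusted p 0.05, absolute log2 fold change 1) are those of the study, which used DESeq2. Alternatives were DESeq2 1.42.0, limma 3.58.1 on log2(TPM + 1) of the deposited TPM, edgeR on 6 mice, other scaling, no filter, no fold threshold, and each mouse left out. The script was tested on simulated counts.

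The 9 genes and all lists were chosen with earlier results of these data known, so no pattern here is independent support. The rule named the 9 genes, all genes of the receptor, ligand, ISG15 and Ifit/Oas lists, the 3 genes with the largest absolute fold change per comparison in the other pathway lists, and the 5 genes most alike. One result of the receptor list is not reported here. Tor3a, Tap1, Cmpk2 beyond its list value, the 2-fold count for single mice and the TPM separation were chosen after values were seen. Deviations used log2 CPM with a prior count of 2. Promoters and gene spans come from RefSeq, and coding identity from the longest open reading frames in GENCODE. Interferon genes without a value here were not analysed. The floor given for a count of 0 covers counting error only, as no molecular identifiers are named.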

Additional observations from a re-analysis of the deposited data

How the results depend on the processing

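Each group holds 3 livers, and the interferon ligands were too low to test at this depth. For the counts of called genes, 76 of 87 alternative values were within 1.5 times those reported. Of 390 values for single genes and medians, 370 were counted as the same. For a single gene this meant the same direction and call, whatever the size. For a median it meant a shift smaller than its SD between mice. The log2 fold change of Ifit2 in NASH against Control ran from 1.79 to 3.62 over the alternatives. In NASH against Control, 5 to 9 of the 9 interferon genes were called (5 without Control replicate 3, 9 without Control replicate 29, 8 with DESeq2 on 6 mice). In NASH+Exercise against NASH, 0 were called with DESeq2, limma or edgeR under any scaling or with any mouse left out, nor with edgeR and an adjusted p alone, and 3 with DESeq2 on the 6 mice and an adjusted p alone, which was chosen after seeing the data. In NASH+Exercise against Control, leaving out 1 mouse gave 3 to 8, with 3 without Control replicate 3 and 8 without Control replicate 29. Among these alternative fits against Control, the share of all genes called higher was worked out only without Control replicate 29. It was 15.3% in NASH and 10.1% in trained mice. The counts from the other fits, DESeq2 on 6 mice included, have no such share beside them. The log2 fold change of Rsad2 in that comparison was -0.72 to 0.14 with 1 mouse left out, and turned to 0.14 only without Control replicate 29. The other pathway genes called lower with training numbered 6 with DESeq2 on 6 mice, 5 with DESeq2 on 9 mice, 4 with limma on TPM, 0 with edgeR on 6 mice, and 0 to 2 with 1 mouse left out. It was 2 without NASH replicate 19, and 0 without NASH+Exercise replicate 18 or 22 or NASH replicate 5 or 20. Of all genes, 0.936% were called lower with DESeq2 on 6 mice and 0.0367% in the main edgeR fit. The other fits have no such share here, so these counts cannot be compared between tools. Scaling by library size alone shifted the median of all genes by 0.36 in NASH, -0.23 with training and 0.15 in trained mice against Control. The median of the 9 genes with training was -0.73 under it, -0.79 with limma on TPM, and -0.84 without NASH+Exercise replicate 8. The causes were not tested. The replicate numbers differ between groups. No paired analysis was possible because the groups share no replicate number.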

Other observations

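Targets mainly of interferon gamma were measured beside the type I genes. Of 11 tested, 9 were called higher in NASH than in Control, against 15.3% of all genes tested. Their median log2 fold change over the 11 was 2.46, led by Tgtp1 (3.98), Ciita (3.83), the master regulator of MHC class II genes, and Cxcl9 (3.44), a T cell chemokine. With training all 11 were lower, with a median of -1.14 against -0.53 for the 9 type I genes, and the difference between the lists was not tested. The only one called by edgeR was Tgtp1, which fell from 82.8, 44.8 and 76.1 CPM in NASH to 22.2, 14.8 and 10.7 CPM in NASH+Exercise, a log2 fold change of -2.09 (edgeR adjusted p = 0.0405). That call was lost with edgeR on the 6 mice (adjusted p = 0.072) and without NASH replicate 5 (0.134) or 20 (0.132) or NASH+Exercise replicate 18 (0.166) or 22 (0.102), while the log2 fold change stayed between -2.41 and -1.87 over all alternatives. Its near-identical copy Tgtp2 had -1.6 (edgeR adjusted p = 0.287), and the split of reads between them is uncertain. Igtp, a GTPase of the same family of defence proteins, had -1.50 (edgeR adjusted p = 0.0746) and was at 0.13 in trained mice against Control. DESeq2 on the 6 mice called 5 of the 11 lower, against 0.936% of all genes. They were Tgtp1 (-2.05, DESeq2 adjusted p = 1.64e-10), Igtp (-1.45, 4.63e-07), Tgtp2 (-1.56, 2.68e-06), Ciita (-1.1, 0.000357) and Gbp2 (-1.21, 0.00219). All 11 were called in NASH without Control replicate 29.

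Plasmacytoid dendritic cells are known as a source of type I interferon. Of their 5 markers 3 were tested, and Siglech was the one called in NASH (log2 fold change 2.98, edgeR adjusted p = 0.00172), from 4, 1 and 7 estimated counts in Control to 34, 47 and 45 in NASH. It had 30.2, 14 and 9 in NASH+Exercise (log2 fold change -1.08, edgeR adjusted p = 0.28). Ccr9 (0.62) and Pacsin1 (-0.27) were not called in NASH, and Klk1 and Cox6a2 were listed at 0 in every Control mouse.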
